A study of Homo sapiens with 18 samples.

Results

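The nuclear factor I (NFI) genes NFIA, NFIB, NFIC and NFIX were followed through 94 windows of a genome-wide ATAC-seq table that holds 89428 windows. A window was taken when it overlapped one of the 4 genes, or the sequence up to 250 kb on either side of NFIA and NFIB or up to 20 kb on either side of NFIC and NFIX. This gave 42 windows at NFIA, 24 at NFIB, 9 at NFIC and 19 at NFIX. The windows were therefore chosen by position alone, but the family was chosen with the accessibility of NFIB in these lines already known. Levels and changes are for that reason given as a description, and no p-value is printed for any NFI window.

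Accessibility was measured in 6 established ovarian cancer cell lines with 3 libraries each, arranged as 3 pairs in which 1 line is sensitive and the other resistant to platinum. A2780, labelled an endometrial/ovarian cancer line, was paired with its derivative CP70, which was made resistant in culture. PEA1 and PEA2 came from 1 high-grade serous ovarian cancer patient before platinum and after relapse, and PEO1 and PEO4 from another patient before and after clinical resistance. All lines were grown in the same medium and the labels name no engineered allele or drug treatment. Each line is 1 isolate, so resistance cannot be told apart from other differences between the lines of a pair. The labels do not say that the 3 libraries of a line came from separate cultures, and the spread between them may be technical.

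NFI proteins are transcription factors that share a DNA-binding domain and bind DNA as dimers of any members of the family. The preferred site is a palindrome, TTGGC and its reverse complement 5 bases apart, and 1 arm of it is also bound more weakly. NFIA and NFIB are best known for switching neural progenitors to glia, NFIB also for lung maturation and as a gene amplified in small cell lung cancer, where it opens distal chromatin. NFIC is required for tooth root formation, and NFIX acts in muscle and blood stem cells.

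The sequences that separate the windows discussed below are those of the NFIB promoter and of the windows upstream of NFIB whose accessibility changed most between A2780 and CP70. The promoter stretch runs from 250 bases before to 50 after the canonical start, on the minus strand at chr9:14314091-14314390. The other stretches are the middle 300 bases, on the plus strand, of the windows centred 157 and 211 kb upstream of that start, at chr9:14471450-14471749 and chr9:14525450-14525749. All were read from GRCh37, which is the hg19 build of the table, and capitals mark every CpG dinucleotide.
NFIB promoter: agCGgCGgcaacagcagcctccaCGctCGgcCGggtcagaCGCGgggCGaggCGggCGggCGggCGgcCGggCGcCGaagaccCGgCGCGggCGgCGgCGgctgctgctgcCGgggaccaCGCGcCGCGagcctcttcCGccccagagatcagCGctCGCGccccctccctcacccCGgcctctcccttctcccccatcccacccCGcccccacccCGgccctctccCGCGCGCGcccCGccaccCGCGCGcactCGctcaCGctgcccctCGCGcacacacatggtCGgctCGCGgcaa
NFIB upstream 157 kb: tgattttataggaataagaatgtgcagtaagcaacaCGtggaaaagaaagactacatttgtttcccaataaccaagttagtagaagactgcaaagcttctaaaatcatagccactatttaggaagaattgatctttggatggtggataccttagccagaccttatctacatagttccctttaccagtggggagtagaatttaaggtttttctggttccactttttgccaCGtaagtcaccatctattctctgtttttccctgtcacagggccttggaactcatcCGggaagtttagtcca
NFIB upstream 211 kb: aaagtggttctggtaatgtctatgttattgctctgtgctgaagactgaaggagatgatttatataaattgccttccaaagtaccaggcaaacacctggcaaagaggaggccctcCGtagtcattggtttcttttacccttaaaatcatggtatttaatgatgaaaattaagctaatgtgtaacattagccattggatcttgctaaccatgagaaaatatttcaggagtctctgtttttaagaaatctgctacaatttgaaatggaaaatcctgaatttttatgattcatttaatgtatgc

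The promoter stretch was 80% G or C and held 48 CpG dinucleotides, whereas the upstream stretches were 39.7% and 34.7% G or C and held 3 and 1. A value covers a whole window of 1 kb, so which bases within a window were accessible is not resolved.

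Read depth and background differed between the lines. The libraries held 8963079 to 60435027 reads, and the share of reads within the 89428 windows rose from 9.26% ± 0.832 (SD, n = 3) in A2780 to 39.9% ± 0.949 in PEO1. Levels are in FPKM, which is scaled to all reads of a library, and the order of lines can differ between FPKM and the percentile of a window among the 89428 windows of the same line. Percentiles are given for the start windows and for some others. Where none is given, the order of lines by percentile may differ from the order in FPKM. Start windows of Müllerian and serous genes were low in FPKM in A2780 and CP70, where 0 of 8 listed had a mean above 2 FPKM. PAX8 had 0.610 ± 0.206 FPKM in A2780. The number above 2 FPKM was 4 in PEA1 and 5 in PEA2, and 7 in PEO1 and 6 in PEO4, and the sums over the 8 windows ran from 6.67 FPKM in A2780 to 63.1 in PEO4. These values carry the difference in scaling. By percentile SOX17 ranked at 61.2 in A2780 and 12.5 in PEO1. The other listed genes ranked lower in A2780 than in PEO1, such as PAX8 at 45.4 against 85.1. Against PEA1 the order was mixed, with PAX8 at 87.3 there but KRT7 at 34.4, below 61.3 in A2780. The ninth gene of that list, MUC16, had no start window in the table. Of markers of other cells, the table listed the start windows of 1 of 4 leukocyte, 1 of 5 stromal and 0 of 3 endothelial genes, namely CD14 and COL1A2.

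Across the family, most windows were open in only part of the lines. Taking a line mean above 2 FPKM as open, 5 of the 94 windows were open in all 6 lines, 84 in 1 to 5 lines and 5 in none. By line, 14 of the 94 windows were open in A2780 and 23 in CP70, 22 in PEA1 and 19 in PEA2, and 67 in PEO1 and 49 in PEO4. The corresponding shares were 14.9%, 24.5%, 23.4%, 20.2%, 71.3% and 52.1%. Over the whole table the same threshold gave 12.3%, 23.9%, 30.7%, 43.5%, 67.9% and 55.5%, and the widest gap was that of PEA2. With the median of each line as the threshold instead, the numbers were 50, 51, 40, 28, 44 and 45. A window is listed only where at least 2 of the 18 libraries exceeded 2 FPKM, which favours lines with a high share of reads in windows.

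At the threshold of 2 FPKM the genes differed in which lines their windows were open. NFIB had 9 windows open in A2780 alone and 4 open in all 6 lines. NFIA had 12 windows open in PEO1 alone, 11 in both PEO lines and 1 in all 6 lines. At NFIX 9 of 19 windows were open in PEO1 and PEO4 alone, and at NFIC 4 of 9 were open in CP70 alone. The 9 at NFIX include chr19:13226400-13227400 and chr19:13227300-13228300, which lie at the neighbouring gene TRMT1. The share of each pattern over the whole table was not counted, so these counts are a description. The threshold alone passed 67.9% of all windows in PEO1 and 55.5% in PEO4. At NFIA both PEO lines lay above the other 4 in FPKM at 31 of 42 windows, but by percentile at 12.

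NFIB lies on the minus strand of chromosome 9 from 14081842 to 14398982. Its canonical start window, chr9:14313600-14314600, had line means from 1.88 to 3.95 FPKM, below the threshold of 2 FPKM in A2780 and PEA2. The libraries gave 1.78, 2.28 and 1.60 FPKM in A2780 and 3.94, 2.15 and 2.47 in CP70. They gave 2.98, 3.33 and 2.92 in PEA1 and 1.92, 1.85 and 1.86 in PEA2. In PEO1 the values were 4.15, 4.01 and 3.68, and in PEO4 3.37, 3.46 and 3.84. A2780 and PEA2 were thus lowest and overlapped, the PEO lines were highest and overlapped, and the highest line was 2.10-fold above the lowest. As a percentile within each line the order was different, from 86.4 in A2780 and 86.0 in CP70 through 84.7 in PEA1, 68.4 in PEO4 and 63.9 in PEO1 to 52.9 in PEA2.

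The other NFIB promoter windows were open in every line. They lie 0.86, 8.06 and 8.96 kb upstream of the canonical start, the last of them beside a start rather than over one, and ran from 2.08 FPKM in PEA2 to 8.60 in PEO1, with at least 2.43 in A2780 and 2.66 in CP70. The highest window outside the promoter windows in 4 of the 6 lines was chr9:14315400-14316400, 1.76 kb upstream in an intron of longer transcripts. It had 2.18 ± 0.135 FPKM in A2780 and 3.72 ± 1.26 in CP70, 4.21 ± 0.390 in PEA1 and 2.22 ± 0.0667 in PEA2, and 6.0 ± 0.439 in PEO1 and 7.06 ± 0.933 in PEO4.

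Upstream of NFIB the lines parted. From 128 to 219 kb before the canonical start the table holds 9 intergenic windows, between 14441400 and 14533300, and all 9 were open in A2780 and low in the other 5 lines. In A2780 the mean over the 9 windows was 2.74, 3.42 and 2.41 FPKM in the 3 libraries. In CP70 it was 0.311, 0.432 and 0.470 FPKM. The line means were 2.86 ± 0.513 (SD, n = 3) in A2780 and 0.405 ± 0.0828 in CP70, 0.364 ± 0.0105 in PEA1 and 0.347 ± 0.0914 in PEA2, and 0.237 ± 0.0137 in PEO1 and 0.133 ± 0.0230 in PEO4. A2780 was therefore 7.06-fold above CP70, the next line in order, and 21.5-fold above PEO4.

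**Figure D1:**
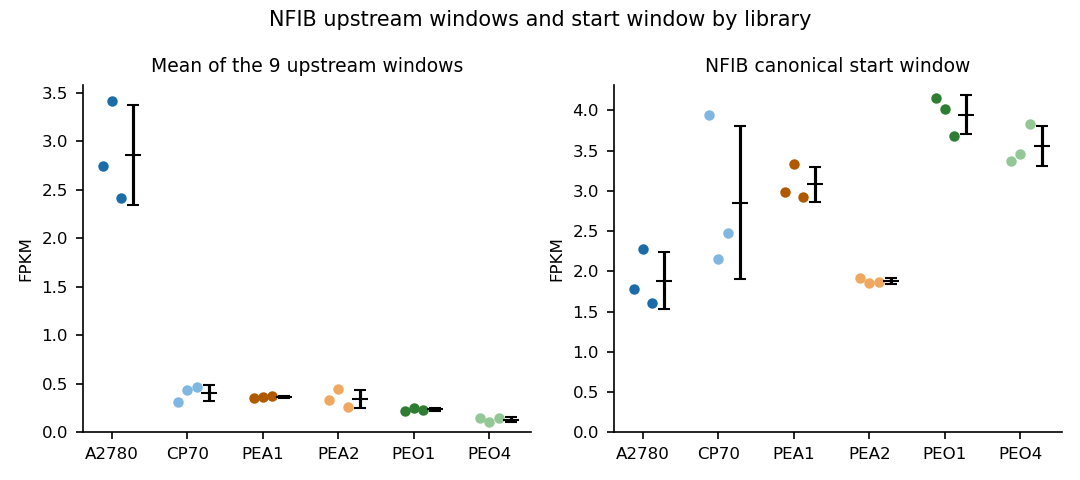
Left, mean FPKM over the 9 windows 128 to 219 kb upstream of NFIB, and right, FPKM of the NFIB canonical start window, for each of the 18 libraries (points) with the line mean and SD beside them. The 3 A2780 libraries lie between 2.41 and 3.42 FPKM in the left plot and the other 15 at or below 0.470, while the right plot shows every library at or above 1.60 FPKM.

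The difference was present in each of these windows. In 9 of 9, every A2780 library lay above all 15 libraries of the other lines, an arrangement found in 162 windows, or 0.181%, of the whole table. No library of another line exceeded 1.56 FPKM in these windows, so they are listed through A2780 alone and the family was chosen on that difference. The count is therefore a description, and nothing is read from its distance to the background. In A2780 the windows ranked at the 90.8 to 97.5 percentile of that line, in CP70 at the 7.28 to 49.8 percentile and in PEO4 at the 0.0822 to 3.95 percentile. Each window held 114 to 221 reads in an A2780 library and 3 to 26 in a CP70 library. PEO1 was the nearest of the patient-derived lines at 1 window, chr9:14532300-14533300, with a line mean of 1.08 FPKM and 1.56 in 1 library.

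Between A2780 and CP70, 8 of the 9 windows were called lower in CP70, a call being a log2 fold change beyond 2 with an adjusted p below 0.001 over all windows tested with limma. In either direction 16.3% of the 49 NFI windows tested were called, against 0.797% of all windows. As these calls are the difference on which the family was chosen, nothing is read from that excess. The background of lower calls was 0.369% of 37128 windows, and 8 of the 137 windows called lower anywhere, or 5.84%, lay here. With each library centred on its median, 40 windows were called higher and 234 lower over the whole table in place of 159 and 137, since the median log2 fold change of all windows was 0.59. With 0.5 in place of 0.1 FPKM added before the logarithm, 3 of the 8 windows remained called.

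The largest change was in chr9:14525100-14526100, where A2780 gave 2.65, 3.54 and 2.66 FPKM and CP70 0.227, 0.180 and 0.209. A2780 was 14.4-fold above CP70 there, with a log2 fold change of -3.31 ± 0.31 (SE). In chr9:14471100-14472100 A2780 gave 3.61, 4.55 and 3.22 FPKM and CP70 0.303, 0.299 and 0.335, a log2 fold change of -3.23 ± 0.27. The libraries of the lines did not overlap in either window.

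The most accessible of the 9 in A2780 was chr9:14441400-14442400, with 3.85, 4.69 and 3.06 FPKM against 0.303, 0.419 and 0.586 in CP70 and a log2 fold change of -2.90 ± 0.26. PEO1 had 0 or 1 read in this window in each library. In chr9:14516100-14517100 A2780 gave 2.39, 2.59 and 2.02 FPKM and CP70 0.227, 0.299 and 0.293, with a log2 fold change of -2.70 ± 0.32. The window not called, chr9:14442300-14443300, had 2.39 ± 0.624 FPKM in A2780 and 0.843 ± 0.468 in CP70, and its libraries did not overlap either.

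Windows on either side did not share the pattern. The next listed window toward NFIB, chr9:14372100-14373100, had 0.270 ± 0.0509 FPKM in A2780 and was highest in PEO1 with 2.04 ± 0.361. On the far side the next listed window, chr9:14692500-14693500, is 159.2 kb away and holds the start of ZDHHC21. It had 1.66 ± 0.701 FPKM in A2780 and 3.0 ± 0.690 in CP70, with a log2 fold change of 0.87. In the 5 Mb bin around NFIB the 11 other windows tested in this pair had a median log2 fold change of 0.78, opposite in sign to that of the upstream windows.

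**Figure D2:**
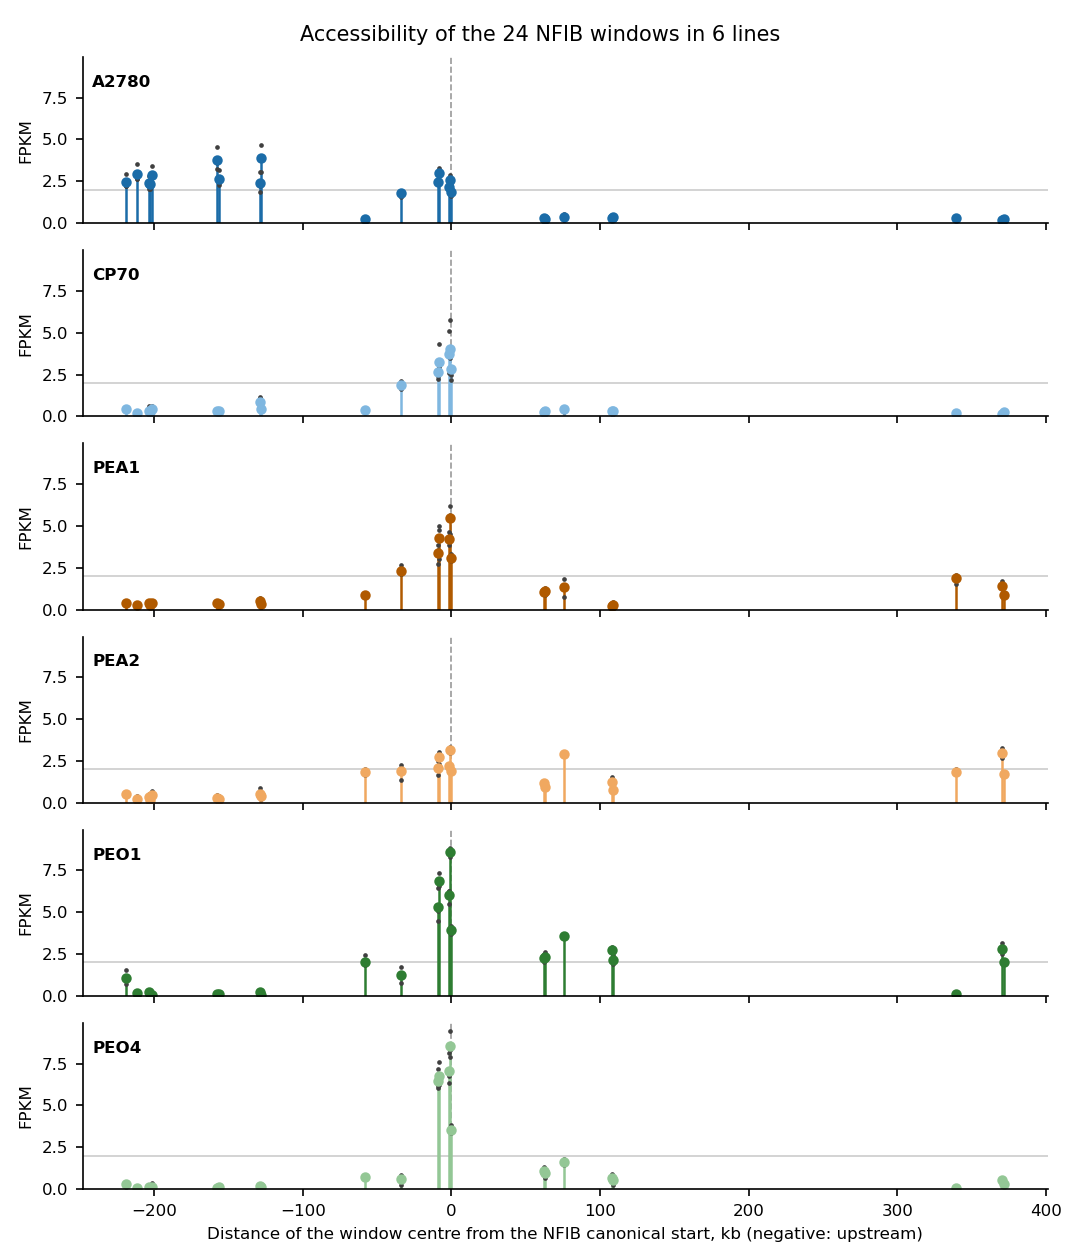
FPKM of the 24 NFIB windows against the distance of the window centre from the canonical start in kb (negative is upstream), with 1 panel per line, coloured points for the line mean, small points for the 3 libraries and a grey line at 2 FPKM. The windows more than 100 kb upstream rise above the grey line only in A2780, while 4 of the windows around the start do so in every line.

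The upstream windows differed from the NFIB start in base composition, as the printed stretches show. None of the 9 was CpG-rich (over 50% G or C and a ratio of observed to expected CpG greater than 0.6), against 23.3% of all windows of the table. Their median G or C content was 43.4%, against 50.5% for all windows. Of the 80 intron and intergenic windows of the family, which include these 9, 15% were CpG-rich, and the median G or C content was 45.55%. The NFIB windows more than 1 kb downstream of the start were not CpG-rich either, so this composition was not particular to the 9. The AP-1 motif TGANTCA, the site of Fos and Jun dimers, occurred in 3 of the 9 (33.3%, against 38.3% of all windows). A single NFI arm TTGGC, counted on both strands, occurred in 6 of 9 (66.7%, against 85.9%), and the full NFI palindrome in none. A single arm is part of the full site, and a match of letters is not a bound site.

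More than 1 kb downstream of the NFIB start, within the gene or beyond its 3′ end, all 8 windows had at most 0.410 FPKM in A2780 and CP70. Window chr9:13942800-13943800, 370.8 kb downstream of the start, had 0.210 ± 0.0534 FPKM in A2780 and 0.127 ± 0.0519 in CP70. It had 1.38 ± 0.493 in PEA1 and 2.95 ± 0.290 in PEA2. It had 2.82 ± 0.304 in PEO1 and 0.532 ± 0.0881 in PEO4. This window and its neighbour chr9:13941900-13942900 were called lower in PEO4. The call of the first was lost with libraries centred on their median, at a log2 fold change of -1.87, and with the median of the surrounding 5 Mb removed, at -1.23.

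In chr9:13941900-13942900 PEO1 gave 2.12, 2.01 and 2.01 FPKM and PEO4 0.233, 0.480 and 0.199, a log2 fold change of -2.47 ± 0.35. The surrounding 5 Mb moved the same way, with a median log2 fold change of -0.98 over 24 other windows and 5 of them called lower. After removal of the median of the bin the value was -1.5, which was no longer called. In the PEA pair the same window was higher in the resistant line, with 0.929, 0.872 and 0.863 FPKM in PEA1 and 1.76, 1.73 and 1.64 in PEA2, short of a call. Of the 8 windows more than 1 kb downstream of the NFIB start, within the gene or beyond it, 5 were open in PEO1 alone, 2 in PEO1 and PEA2 and 1 in no line.

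NFIA lies on the plus strand of chromosome 1 from 61330931 to 61928460, with its canonical start at 61548233. Its start window, chr1:61547400-61548400, had the highest FPKM in the PEO lines. The means were 1.71 ± 0.167 FPKM in A2780 and 4.04 ± 2.02 in CP70, 2.44 ± 0.289 in PEA1 and 1.91 ± 0.206 in PEA2, and 8.03 ± 1.00 in PEO1 and 6.55 ± 0.196 in PEO4. The CP70 libraries were uneven, at 6.36, 2.69 and 3.06 FPKM, and all 3 lay above those of A2780. All PEO libraries lay above those of the other lines, though the highest CP70 library came close to the lowest of PEO4 at 6.39. By percentile CP70 was first at 92.7, followed by PEO1 at 85.5, PEO4 at 84.2, A2780 at 83.9, PEA1 at 77.3 and PEA2 at 53.9.

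Away from its start, NFIA, which has the most windows of the family, also had most of the calls in the patient-derived pairs, 7 of 9. In the PEA pair 4 NFIA windows were called higher in PEA2 (background 11.2% of 66103 windows) and 1 lower (background 1.42%). These were 4 and 1 of the 59 NFI windows tested in the pair, and no window of the other 3 genes was called. Over all 4 genes the share called in either direction was 8.47%, against 12.7% of all windows tested.

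The windows that were higher in PEA2 lay in NFIA introns. In chr1:61889400-61890400, 341.7 kb downstream of the start, PEA1 gave 0.160, 0.311 and 0.0959 FPKM and PEA2 3.52, 2.43 and 2.75. PEA2 was 15.3-fold higher, with a log2 fold change of 3.43 ± 0.31. In chr1:61340400-61341400, 207.3 kb upstream, PEA1 gave 0.320, 0.187 and 0.288 FPKM and PEA2 2.36, 1.5 and 1.95, a log2 fold change of 2.48 ± 0.32. In chr1:61407900-61408900, 139.8 kb upstream, PEA1 gave 0.737, 0.717 and 0.719 FPKM and PEA2 4.95, 3.35 and 4.53, a log2 fold change of 2.39 ± 0.24. The fourth, chr1:61890300-61891300, adjoins the first.

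Except for chr1:61340400-61341400, these windows were also open in PEO1 and PEO4 and low in A2780 and CP70. Window chr1:61407900-61408900 had 10.0 ± 0.385 FPKM in PEO1 and 6.56 ± 0.563 in PEO4, against 0.521 ± 0.175 in A2780 and 0.518 ± 0.0345 in CP70. It was the most accessible NFIA window outside promoter windows and windows holding a start in both PEA2 and PEO1. There it ranked at the 91.2 and 90.1 percentiles of those lines. Window chr1:61889400-61890400 had 4.42 ± 1.21 FPKM in PEO1 and 3.18 ± 1.02 in PEO4, and 0.179 ± 0.104 in A2780 and 0.104 ± 0.115 in CP70. In these 2 windows PEA1 stood with A2780 and CP70, and its relapse counterpart PEA2 with the PEO lines. Window chr1:61340400-61341400 did not share this. It was open in no line, with 1.62 FPKM in PEO1 and less in PEO4, and at the 25.2 and 27.5 percentiles the PEO lines were below A2780 at 31.3 and CP70 at 31.8, with PEA2 at 54.7.

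Each of the 3 separate windows held the AP-1 motif, which occurs in 38.3% of all windows of the table and in 40.5% of NFIA windows. The matches are shown with 20 bases on either side, on the plus strand of GRCh37 at chr1:61340545-61340591, chr1:61408138-61408184 and chr1:61889485-61889531, with the motif in capitals. The first window also held another match.
NFIA upstream 207 kb: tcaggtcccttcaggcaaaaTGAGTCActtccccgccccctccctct
NFIA upstream 140 kb: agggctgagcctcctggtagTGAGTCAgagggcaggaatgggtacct
NFIA downstream 342 kb: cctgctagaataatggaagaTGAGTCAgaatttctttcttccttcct

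The full NFI palindrome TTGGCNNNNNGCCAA was found in 2 of the 94 windows, both in NFIA introns (2.13%, against 0.125% of all windows of the table). They lie in windows chr1:61650000-61651000 and chr1:61749900-61750900, which had the highest FPKM in PEO1 with 2.17 and 2.06 FPKM and at or below 0.397 FPKM in A2780, CP70 and PEA1. The palindromes are shown in capitals, on the plus strand at chr1:61650193-61650247 and chr1:61750335-61750389.
NFIA downstream 102 kb: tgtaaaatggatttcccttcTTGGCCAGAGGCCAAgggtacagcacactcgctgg
NFIA downstream 202 kb: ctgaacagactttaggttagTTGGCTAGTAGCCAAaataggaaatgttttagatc

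Other NFIA windows changed in the opposite direction or in another pair. Window chr1:61623000-61624000, 75.27 kb downstream, was the 1 called lower in PEA2, with 2.98, 3.33 and 1.68 FPKM in PEA1 and 0.275, 0.405 and 0.311 in PEA2 and a log2 fold change of -2.64 ± 0.29. It was low in PEO1, at 0.229 ± 0.0302, and 1.27 ± 0.216 in PEO4. The nearby window chr1:61625700-61626700 was called lower in PEO4, from 1.72, 2.27 and 2.01 FPKM in PEO1 to 0.233, 0.144 and 0.249, a log2 fold change of -2.77 ± 0.38. Window chr1:61428600-61429600, 119.1 kb upstream, was called higher in PEO4, from 0.303, 0.349 and 0.334 FPKM in PEO1 to 2.21, 2.21 and 2.99, a log2 fold change of 2.57 ± 0.32. The first of these windows was too low for a test in the PEO pair. Its PEO1 libraries held 2 to 3 reads each, so no fold is given, and by level these nearby windows differed in opposite directions between PEO1 and PEO4.

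In the PEO pair as a whole 1 NFI window was called higher and 3 lower of 77 tested, or 5.19% in either direction. The background was 2.72% higher and 5.78% lower, 8.49% in all, over 77654 windows. In the A2780 pair 0 of 49 NFI windows were called higher by limma or edgeR (background 0.428%), while 30, or 61.2%, had an unadjusted p under 0.05 in that direction, against 56.4% of all windows, and 0 of the 12 NFIA windows tested were called in either direction.

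Some NFIA windows were shared by the PEO lines or by all 4 patient-derived lines. Window chr1:61947000-61948000, intergenic and 399.3 kb downstream, had 9.17 ± 0.0342 FPKM in PEO1 and 6.85 ± 0.669 in PEO4 and at most 0.738 ± 0.339 in any other line. Window chr1:61803000-61804000, in an intron 255.3 kb downstream, was open in all 4 patient-derived lines, with 3.37 ± 1.18, 3.24 ± 1.23, 3.69 ± 0.809 and 2.63 ± 0.526 FPKM in PEA1, PEA2, PEO1 and PEO4. It had 0.515 ± 0.164 in A2780 and 0.903 ± 0.202 in CP70. In A2780 and CP70 the highest NFIA windows outside promoter windows and windows holding a start adjoined each other 32.73 and 31.83 kb upstream. They had 1.74 ± 0.10 FPKM in A2780 and 2.71 ± 0.685 in CP70, respectively. In FPKM A2780 was the lowest line in both windows. PEO1 had 6.03 and 6.44 FPKM and PEO4 4.42 and 6.51. By percentile the order was different. In the first window A2780 at 84.3 and CP70 at 83.2 were highest, followed by PEO1 at 78.1. In the second CP70 at 84.7 and PEO4 at 84.1 were followed by PEA1 at 82.4 and A2780 at 81.7.

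**Figure D3:**
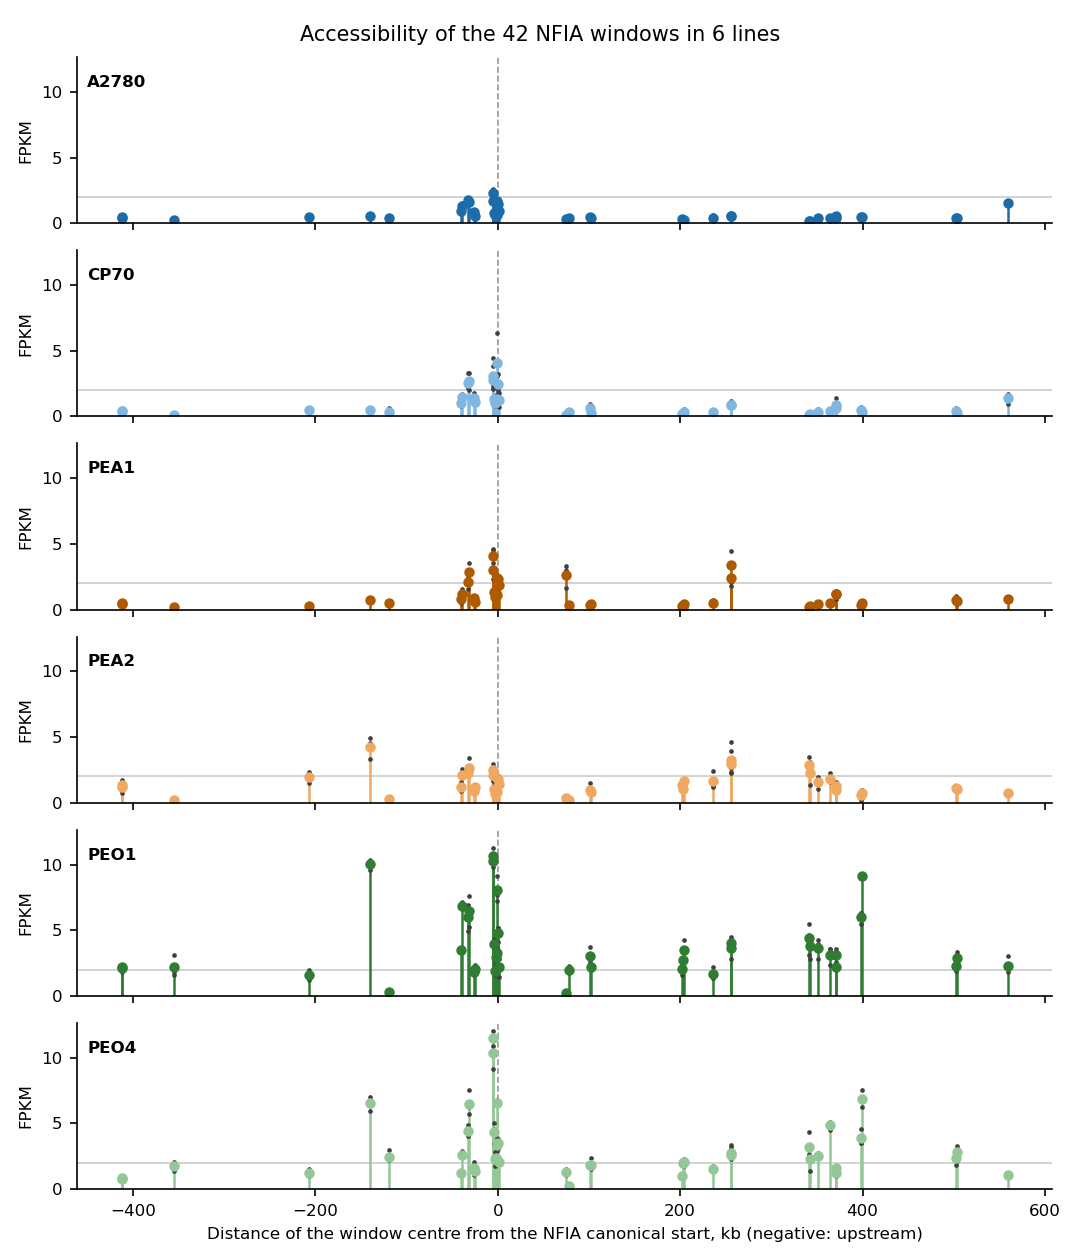
FPKM of the 42 NFIA windows against the distance of the window centre from the canonical start in kb (negative is upstream), with 1 panel per line, coloured points for the line mean, small points for the 3 libraries and a grey line at 2 FPKM. Windows around the start are present in all panels. Some distal windows rise in PEA2, PEO1 and PEO4, such as the one 139.8 kb upstream at 4.28, 10.0 and 6.56 FPKM. Others rise in the PEO lines alone, such as the one 399.3 kb downstream at 9.17 FPKM in PEO1 and 6.85 in PEO4.

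NFIC and NFIX, both on the plus strand of chromosome 19, had 0 windows called in any pair by limma as set out above or by edgeR. With the median of the surrounding 5 Mb removed, NFIX window chr19:13147200-13148200 was called higher in PEA2, at a log2 fold change of 2.07, and chr19:13170600-13171600 lower in PEO4, at -2.15. The latter was also called without PEO4 replicate 1. At an unadjusted p under 0.05, 7 of 7 NFIC and 13 of 15 NFIX windows tested were higher in CP70, where 56.4% of all windows were. With libraries centred on their median the median log2 fold changes of these windows were 0.33 and 0.25. At the same p 3 of 7 NFIC windows were lower in PEA2. Of 15 NFIX windows 1 was higher and 4 were lower, against 44.4% of all windows higher and 22.8% lower. In PEO4 2 of 4 NFIC windows were higher and 1 lower, and of 19 NFIX windows 5 were higher and 4 lower, against 22.8% and 47.2%. The other windows in the 5 Mb bins around NFIC and NFIX had median log2 fold changes of -0.19 and -0.34 in the PEA pair. In the PEO pair these medians were 0.33 and 0.40, with 1 and 11 of those windows called higher and 1 and 0 lower. NFIC spans 3314401 to 3469215, and its start window chr19:3366000-3367000 was highest in CP70, at 3.01 FPKM and the 87.1 percentile. The means were 1.27 ± 0.387 FPKM in A2780 and 3.01 ± 0.504 in CP70, 2.05 ± 0.392 in PEA1 and 1.16 ± 0.385 in PEA2, and 1.94 ± 0.288 in PEO1 and 1.15 ± 0.131 in PEO4. In the A2780 pair the resistant line was higher, with non-overlapping libraries and a log2 fold change of 1.21 ± 0.26. In the PEA and PEO pairs the resistant line was lower, with log2 fold changes of -0.81 ± 0.25 and -0.70 ± 0.25, also without overlap. All 3 changes were short of a call.

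Outside its promoter windows NFIC had a window shared by A2780 and CP70 and another that marked PEA1. Window chr19:3434400-3435400 had 1.83 ± 0.169 FPKM in A2780 and 2.72 ± 0.594 in CP70, and at most 0.611 ± 0.198 in the patient-derived lines. Window chr19:3336300-3337300 had 2.99 ± 0.782 FPKM in PEA1 and at most 1.03 ± 0.218 elsewhere. Window chr19:3450600-3451600 was open in the 4 patient-derived lines, at 2.38, 2.30, 2.70 and 2.04 FPKM in PEA1, PEA2, PEO1 and PEO4, against 0.495 in A2780 and 0.963 in CP70. By percentile CP70 at 53.9 lay above PEO1 at 47.4 and PEO4 at 45.5.

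NFIX spans 13106289 to 13209610 and had both PEO lines above the other 4 in FPKM at 16 of its 19 windows, but by percentile at 6. Its start window chr19:13105800-13106800 had 1.10 ± 0.0577 FPKM in A2780 and 1.94 ± 0.237 in CP70, 1.60 ± 0.0739 in PEA1 and 1.36 ± 0.0822 in PEA2, and 4.22 ± 0.117 in PEO1 and 4.71 ± 0.485 in PEO4. By percentile PEO4 at 76.6 was followed by CP70 at 75.2, A2780 at 69.6 and then PEO1 at 66.5. The highest NFIX window outside promoter windows and windows holding a start in 5 of the 6 lines was chr19:13166100-13167100. This window lies in an intron 60.31 kb downstream. It had 10.1 ± 0.473 FPKM in PEO1 and 9.16 ± 0.831 in PEO4, at the 90.2 and 90.3 percentiles, and 1.32 ± 0.30 in A2780, at the 76.4 percentile. The last 4 of the 19 NFIX windows lie at the starts of the neighbouring genes TRMT1 and NACC1 and are counted here only because of their position. All 4 are among the 16 windows with both PEO lines highest in FPKM. Among the 6 by percentile are chr19:13226400-13227400, chr19:13227300-13228300 and chr19:13229100-13230100 of these neighbouring genes.

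**Figure D4:**
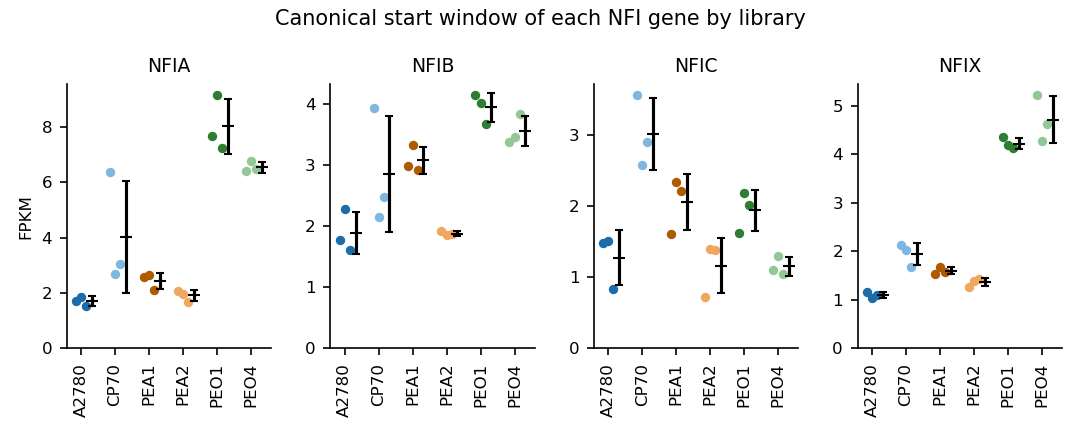
FPKM of the canonical start window of each NFI gene in the 18 libraries (points), with the mean and SD of the 3 libraries of a line beside them. In FPKM NFIA and NFIX are highest in PEO1 and PEO4 and NFIC in CP70, and NFIB ranges from 1.88 in PEA2 to 3.95 FPKM in PEO1.

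The start windows compared with other genes as follows. Among the 13484 protein-coding canonical starts with a window in the table, the NFIB start ranked at the 43.8 percentile in A2780 and the 22.4 percentile in PEO4. NFIC ranked at the 46.1 percentile in CP70 and the 4.47 percentile in PEO4. Of the 24 values of 4 genes in 6 lines, 22 were below the 50th percentile, and NFIA in CP70 was the highest at the 65.3 percentile. The order of lines at a start window depended on the scaling, and relative to the reads within the windows of the table CP70 was highest at all 4 genes. At NFIB the CP70 libraries were uneven, at 3.94, 2.15 and 2.47 FPKM. By percentile among all windows A2780 was first at NFIB, at 86.4 against 86.0 in CP70. PEO4 was first at NFIX, at 76.6 against 75.2.

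All start windows fell short of a call in every pair by limma and by edgeR, and several directions turned with the scaling. For NFIA the log2 fold change was 1.09 ± 0.27 from A2780 to CP70, -0.33 ± 0.23 from PEA1 to PEA2 and -0.28 ± 0.13 from PEO1 to PEO4, the last turning to 0.06 with libraries centred on their median. For NFIB the values were 0.54 ± 0.26, -0.68 ± 0.23 and -0.15 ± 0.16, and centring turned the first to -0.04 and the last to 0.20. For NFIX they were 0.76 ± 0.25, -0.22 ± 0.25 and 0.15 ± 0.15.

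**Figure D5:**
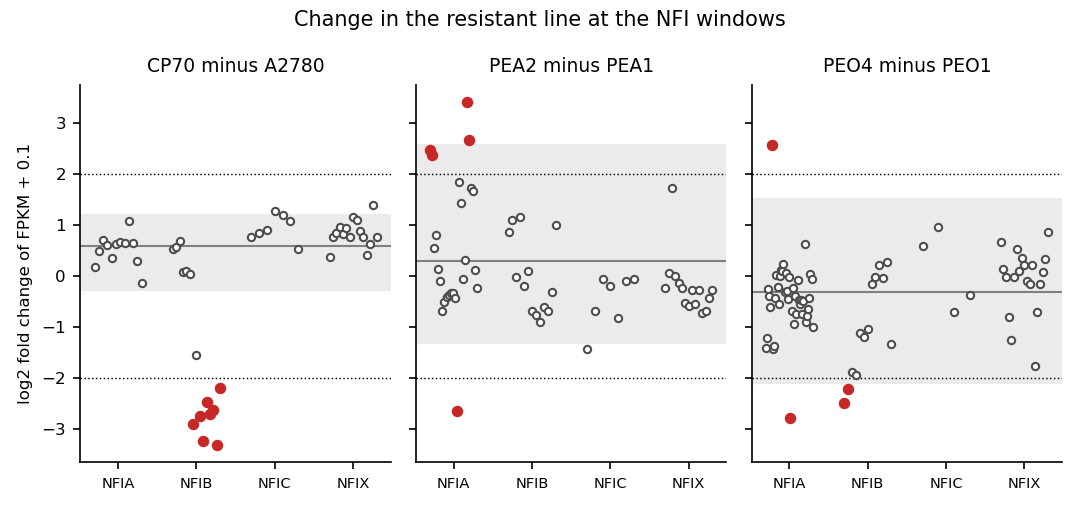
Log2 fold change (resistant minus sensitive line) of each NFI window tested in each pair, by gene and in order of position, with called windows in red, dotted lines at 2 and -2, the median of all windows tested as a grey line and their 5th to 95th percentile as a grey band. The red points in the A2780 pair are the 8 windows upstream of NFIB, and those in the PEA pair are all at NFIA.

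Whether the 3 libraries of a line lay apart from those of its partner was counted without a test. In the A2780 pair 27 of 49 NFI windows had every CP70 library above (background 56.2%) and 9 every CP70 library below (background 2.84%), the 9 being the windows upstream of NFIB. For PEA2 against PEA1 14 of 59 lay above (background 44.1%) and 15 below (background 22.2%), and for PEO4 against PEO1 9 of 77 lay above (background 22.2%) and 34 below (background 47.1%).

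The changes of the pairs were also set against each other. The change differed between the PEA and A2780 pairs by the same thresholds at 5 of 53 NFI windows tested (background 12.8%), between the PEO and A2780 pairs at 4 of 72 (background 8.12%) and between the PEO and PEA pairs at 17 of 77 (background 26.6%). The shares of NFI windows were 9.43%, 5.56% and 22.1%.

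Genes whose start windows followed the same order over the 6 lines were found by the Pearson correlation of line means, centred on the median of each library. The most alike were SOS2, CEP43 and ENSG00000272980 for NFIA, B4GALNT1, R3HCC1 and SNAPIN for NFIB, TET2, TERF2 and RANBP6 for NFIC, and POLR2J, SEPTIN7 and IFNLR1 for NFIX. CEP43 and ENSG00000272980 share 1 window. All had r of 0.99 or more over 6 points, and r above 0.95 was common, with 360 genes for NFIB and 865 for NFIX, so the order is not particular to these genes.

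Of 14 genes known as partners of NFI proteins or as NFI-regulated in neural tissue, 9 had a start window in the table, and those of GFAP, FABP7, MMD2, GABRA6 and CNTN2 did not. None of the 9 was called in any pair by limma or edgeR. At an unadjusted p under 0.05, 5 were higher in CP70, where 54.3% of the canonical start windows tested were. In PEA2 2 were higher and 2 lower, against 18.9% and 38.3% of start windows, and in PEO4 2 were higher and 3 lower, against 27.7% and 32.5%. FOXA1, a pioneer factor that binds beside NFI proteins in hormone-responsive cells, had 2.25 ± 0.214 FPKM in A2780 and 5.07 ± 0.963 in CP70, a log2 fold change of 1.12 ± 0.28. It was 0.56 ± 0.23 from PEA1 to PEA2 and -0.75 ± 0.12 from PEO1 to PEO4, where the means were 16.5 and 9.66 FPKM. SOX9, which induces NFIA in glial progenitors, had 0.753 ± 0.129 FPKM in A2780 and 1.42 ± 0.151 in CP70. Its mean was 5.60 FPKM in PEA1 and 3.09 in PEA2, a log2 fold change of -0.82 ± 0.23, and 16.9 in PEO1 and 19.3 in PEO4. The medians of the 9 log2 fold changes were 0.58, 0.12 and 0.01 in the A2780, PEA and PEO pairs, beside 0.59, 0.31 and -0.30 over all windows tested. The median over start windows alone was not taken, so these medians are not compared like with like. At an unadjusted p under 0.05, 44.4% of all windows were higher in PEA2 and 22.8% lower, unlike the shares of start windows given above.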

How the data were processed

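ATAC-seq libraries of 6 cell lines, 3 per line, were analysed from 1 table. The authors removed duplicates with Picard, aligned reads to hg19 with Bowtie2, dropped blacklisted and mitochondrial reads, counted reads in 1 kb windows with featureCounts and deposited FPKM values made with edgeR. Versions and a shift for the transposase were not given in the sources used here. All windows have 1 length, so the deposited FPKM equals RPM (reads scaled to the library total) within a constant. In all 18 libraries 100% of values were whole multiples of 1 read (tolerance 0.01), from which reads and totals were recovered. Neighbouring windows share 101 bases.

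For each pair log2(FPKM + 0.1) was compared with limma 3.58.1 (trend, Benjamini-Hochberg adjustment) in R 4.3.3 over all windows with a mean above 1 FPKM, without a replicate block. Fold changes on this scale understate the change of low windows. The edgeR 4.0.16 quasi-likelihood test on recovered reads, other pseudocounts, filters, scalings and thresholds and the omission of each library were alternatives. Differences between pairs were fitted over the 12 libraries of both pairs. The code was tested on simulated data. Genes and starts came from GENCODE release 44 on GRCh37, and windows were classed by their centre, promoters reaching from 1000 bases before to 100 after a start.

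The genes and lists were chosen with earlier results of these data known. Windows named were the canonical start windows, the highest window outside the promoter windows of each gene in each line, and, per pair and direction, up to 4 called windows of largest change whose libraries did not overlap, without neighbours. In the search for the highest window, a window holding a start was also left out, even where its centre lay outside a promoter. Windows chr1:61890300-61891300, chr9:14442300-14443300, chr9:14532300-14533300, chr1:61650000-61651000, chr1:61749900-61750900, chr19:13147200-13148200, chr19:13170600-13171600 and the flanks of the upstream NFIB windows were added after their values were seen. The most alike genes were the 3 with the highest correlation at least 5 Mb away. Limits from read numbers cover counting error only.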

Additional observations from a re-analysis of the deposited data

Results flagged for a closer look

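At 8 named windows the change in the resistant line differed between pairs, by the same thresholds as within a pair. Values are differences of log2 fold changes with their SE, and no p is given because the genes were chosen with these data known. At the windows upstream of NFIB the A2780 pair stood apart. For chr9:14441400-14442400 the PEA pair minus the A2780 pair was 2.97 ± 0.46 and the PEO pair minus the A2780 pair 3.80 ± 0.54. For chr9:14471100-14472100 these were 2.72 ± 0.47 and 3.10 ± 0.58. In both windows only A2780 was accessible, and the log2 fold changes from A2780 to CP70 were -2.90 and -3.23. Each difference also holds the change within the PEA or PEO pair, whose libraries had 0 to 13 reads in these windows.

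At NFIA and downstream of NFIB the PEA and PEO pairs differed from each other. The PEO pair minus the PEA pair was -2.87 ± 0.40 in chr1:61340400-61341400, -3.00 ± 0.26 in chr1:61407900-61408900 and -3.90 ± 0.37 in chr1:61889400-61890400. All were called higher in PEA2, and the latter 2 were open in both PEO lines. It was 4.69 ± 0.45 in chr1:61623000-61624000, which fell in PEA2. Its PEO1 libraries held 2 to 3 reads each, so this size depends on the constant added before the logarithm, and was 3.17 with 0.5 FPKM. In chr9:13941900-13942900 it was -3.35 ± 0.39. The PEA pair minus the A2780 pair was 2.36 ± 0.39 in chr1:61407900-61408900. At the NFIC start window, chr19:3366000-3367000, it was -2.02 ± 0.35, since CP70 was above A2780 and PEA2 below PEA1.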

How the results depend on the processing

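The 8 lower calls in CP70 were still 8 without a minimum, with the upper depth limit, with the 5 Mb bin median removed, with edgeR, with the replicate block and without any 1 library, where 8 to 8 remained in number, and 9 with median centring. The pseudocount of 0.5 FPKM left 3. With no window above a mean of 5 FPKM at these genes in the A2780 and PEA pairs, that minimum gave no value there, and in the PEO pair (18 windows) it left 0 higher and 0 lower. The pseudocount of 0.5 FPKM gave 1 higher and 0 lower for PEA2 and 0 and 0 for PEO4. Thresholds of 1 and 0.05 gave 7 higher in CP70 (background 11.4%), 12 higher and 2 lower in PEA2 (29.7% and 9.27%), and 15 lower in PEO4 (23.6%), that is 14.3%, 20.3%, 3.39% and 19.5% of the NFI windows tested. No minimum gave 2 higher in PEO4. Leaving out 1 library gave 0 to 0 higher in CP70, 2 to 5 higher in PEA2 (2 without PEA2 replicate 1) and 1 to 1 lower. It gave 1 to 1 higher in PEO4 and 1 to 5 lower (1 without PEO1 replicate 1, and 5 without PEO4 replicate 1 or 3). The calls lost without PEA2 replicate 1 or without PEO1 replicate 1 were at windows whose mean then fell below the minimum. Those windows were not tested in these settings. The replicate block left the 6 counts at 0 and 8, 4 and 1, and 1 and 3. Same-numbered libraries did not deviate together (correlations of -0.41 to 0.04), and differently numbered ones gave -0.38 to 0.43. With 3 libraries per line these values cannot show whether the numbers pair the samples.

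Small changes at start windows reversed. For NFIA in the PEO pair the log2 fold change became 0.059 with median centring, 0.15 with the bin median removed and 0.012 with edgeR. For NFIB it became -0.037 with centring and -0.057 with edgeR in the A2780 pair, and 0.20, 0.83 and 0.17 with centring, bin removal and edgeR in the PEO pair. For NFIX it became 0.12 for PEA2 and -0.25 for PEO4 with the bin median removed. Of the differences between pairs, the pseudocount of 0.5 FPKM, chosen after seeing the data like the other settings for these differences, took -1.97 in chr1:61340400-61341400, 1.94 in chr1:61407900-61408900 and -1.64 at the NFIC start below the threshold, as did centring for the NFIC start (-1.78). Relative to the reads within the table the highest line was 2.93-fold above the lowest at the NFIA start, 2.17-fold at NFIB, 6.91-fold at NFIC and 2.07-fold at NFIX. Against the median of each line 50 windows were open in A2780, 51 in CP70, 40 in PEA1 and 44 in PEO1. The cause of these changes was not tested. Low windows rest on few reads, so the folds of windows near 0 in CP70 or PEA1 are imprecise.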
